A study of Homo sapiens with 4 samples.

Results

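The RAB small GTPases were described in SW480, a long-established cell line from a human colorectal adenocarcinoma, by total RNA sequencing and by ribosome profiling. A gene belonged to the group when its symbol was RAB followed by a number, an optional letter and an optional second digit, which matched 62 of the 19192 genes in the count tables. The choice used symbols only, although the group was taken up with results of these data known, so its values are given as descriptions. The study compared wild-type SW480 cells with SW480 cells labelled IMP1-/-, named for loss of IMP1, an RNA-binding protein whose gene is IGF2BP1. Each genotype had 1 library of total RNA and 1 library of ribosome-protected fragments (RPF, or footprints), 4 libraries in all, each from 3 pooled culture plates. No treatment is named, and the labels do not say whether the IMP1-/- cells are a clone, so genotype, clone and culture cannot be told apart. For wild-type RNA the labels conflict, with SW840 given as the cell line and SW480 as the source, and this was not resolved.

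RAB proteins are switches that act on membranes. Bound to GTP they sit on one organelle and recruit effectors that tether, move or fuse vesicles, and bound to GDP they are drawn into the cytosol. Exchange factors (GEFs) load GTP, GTPase-activating proteins (GAPs) trigger its hydrolysis, escort proteins and the geranylgeranyl transferase add lipids to cysteines near the carboxyl end, and GDI keeps the lipid-bearing protein soluble. Each step of traffic has its own members: RAB1 and RAB2 between endoplasmic reticulum (ER) and Golgi, RAB5 on early endosomes, RAB7 on late endosomes, RAB4 and RAB11 in recycling, and RAB3, RAB8 and RAB27 in secretion. In polarised intestinal epithelium they sort cargo to the apical or the basolateral surface.

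The end of the reading frame carries the cysteine codons that receive the lipid, and it is shown here for members that the results below turn on. Each sequence is the last 9 codons and the stop codon, 5′ to 3′, of the transcript named in the files, read from GENCODE release 29 (GRCh38). Capitals mark cysteine codons among the last 5 codons before the stop.
RAB7A: aaggcctcggcagaaagcTGCagtTGCtga
RAB5A: ccaaccaggaatcagTGTTGTagtaactaa
RAB1A: gtcaagcagtcaggtggaggtTGCTGCtaa
RAB3B: ccgctgctgcagcagaacTGCtcaTGCtag
RAB27A: gaaaaggagaaaggggcaTGTggcTGTtga
RAB17: gcgaggcaggccaaaTGCTGCgcccactag
RAB8A: agcagctttttccgaTGTgttcttctgtga
RAB8B: accagtttctttcgtTGCtcgctactttga
RAB6A: ccagtcagtgaaggaggcTGTtccTGCtaa
RAB6B: ccggccagcgagggcggcTGCtccTGCtaa
RAB6C: tcatcattgctgcctgtctcgtggaggtga
In 20 members 2 cysteine codons were split by 1 codon at the very end, as in RAB7A, RAB3B, RAB27A and RAB6A. In 15 they were adjacent at the end, as in RAB1A, and in 15 they were adjacent and followed by further codons, as in RAB5A and RAB17. A single cysteine codon was found in 11 members, among them RAB8A and RAB8B. RAB6C, a single-exon copy of RAB6A, was the 1 member with no cysteine codon in this window.

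Library totals were 5551479 counts for wild-type RNA, 4932388 for knockout-labelled RNA, 3782874 for wild-type RPF and 3778316 for knockout-labelled RPF. A gene without reads could still be present at up to 3 counts, which is 0.540 to 0.794 CPM (counts per 1000000 reads) depending on the library. IGF2BP1 had 598 and 571 reads in wild-type and knockout-labelled RNA and 285 and 149 footprints. Its RNA reads were thus nearly equal, the deleted part of the gene is not named in the labels, and the second genotype is written as knockout-labelled. Of 8 markers of intestinal epithelium, all had reads in 3 libraries, and in knockout-labelled RPF VIL1 had 0 reads. Their summed level was 8442 and 5860 CPM in RNA and 25509 and 20830 CPM in RPF, wild type first, most of it from KRT8 and KRT18. The 8 markers moved in different directions. CDH1 had 83 and 286 RNA reads and 88 and 275 footprints. CLDN7 had 647 and 919 reads and 484 and 1932 footprints, and EPCAM 1081 and 1143 reads and 1348 and 1542 footprints. CDX2 had fewer in the knockout-labelled libraries, with 268 and 103 RNA reads and 108 and 72 footprints. VIL1 was nearly absent from them, with 160 and 2 RNA reads and 335 and 0 footprints. KRT8 had 16173 and 9172 reads and 36727 and 28904 footprints, and KRT18 26170 and 15373 reads and 52179 and 39810 footprints. KRT19 had 2285 and 1906 RNA reads but 5230 and 6166 footprints. Markers of other cell types were low: 5 mesenchymal genes summed to between 2 and 27 reads per library, 4 leukocyte genes to between 0 and 2, and 3 endothelial genes to 58, 45, 0 and 47 (0 to 12.4 CPM). The part of these differences in the RAB values was not tested. PTPRC, CD3E and DCN had 0 reads in every library.

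RAB genes as a group took a larger part of the knockout-labelled libraries. They held 13255 reads of wild-type RNA, 0.239% of the library (95% exact binomial interval 0.235 to 0.243), and 15667 reads of knockout-labelled RNA, 0.318% (0.313 to 0.323). In RPF they held 8732 reads, 0.231% (0.226 to 0.236), and 10411 reads, 0.276% (0.270 to 0.281). Intervals cover counting error only, because each group had 1 library. They can be too narrow even for counting error, since reads after PCR are not independent molecules. After TMM scaling, which sets libraries level by a trimmed mean of gene ratios, the summed RNA level went from 2404 to 3155 CPM, a ratio of 1.31, and the summed RPF level from 2310 to 2753 CPM, a ratio of 1.19. A few abundant members carried much of the gain. RAB3B, RAB7A, RAB22A and RAB1A gained 122, 114, 111 and 109 CPM in RNA, and without these 4 the ratio was 1.16. In RPF the 4 largest gains were those of RAB7A, RAB10, RAB1A and RAB2A, at 115, 67.1, 57.1 and 42.5 CPM, and without them the ratio was 1.1. In bulk samples a different mix of cells and a different level per cell cannot be told apart.

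**Figure D1:**
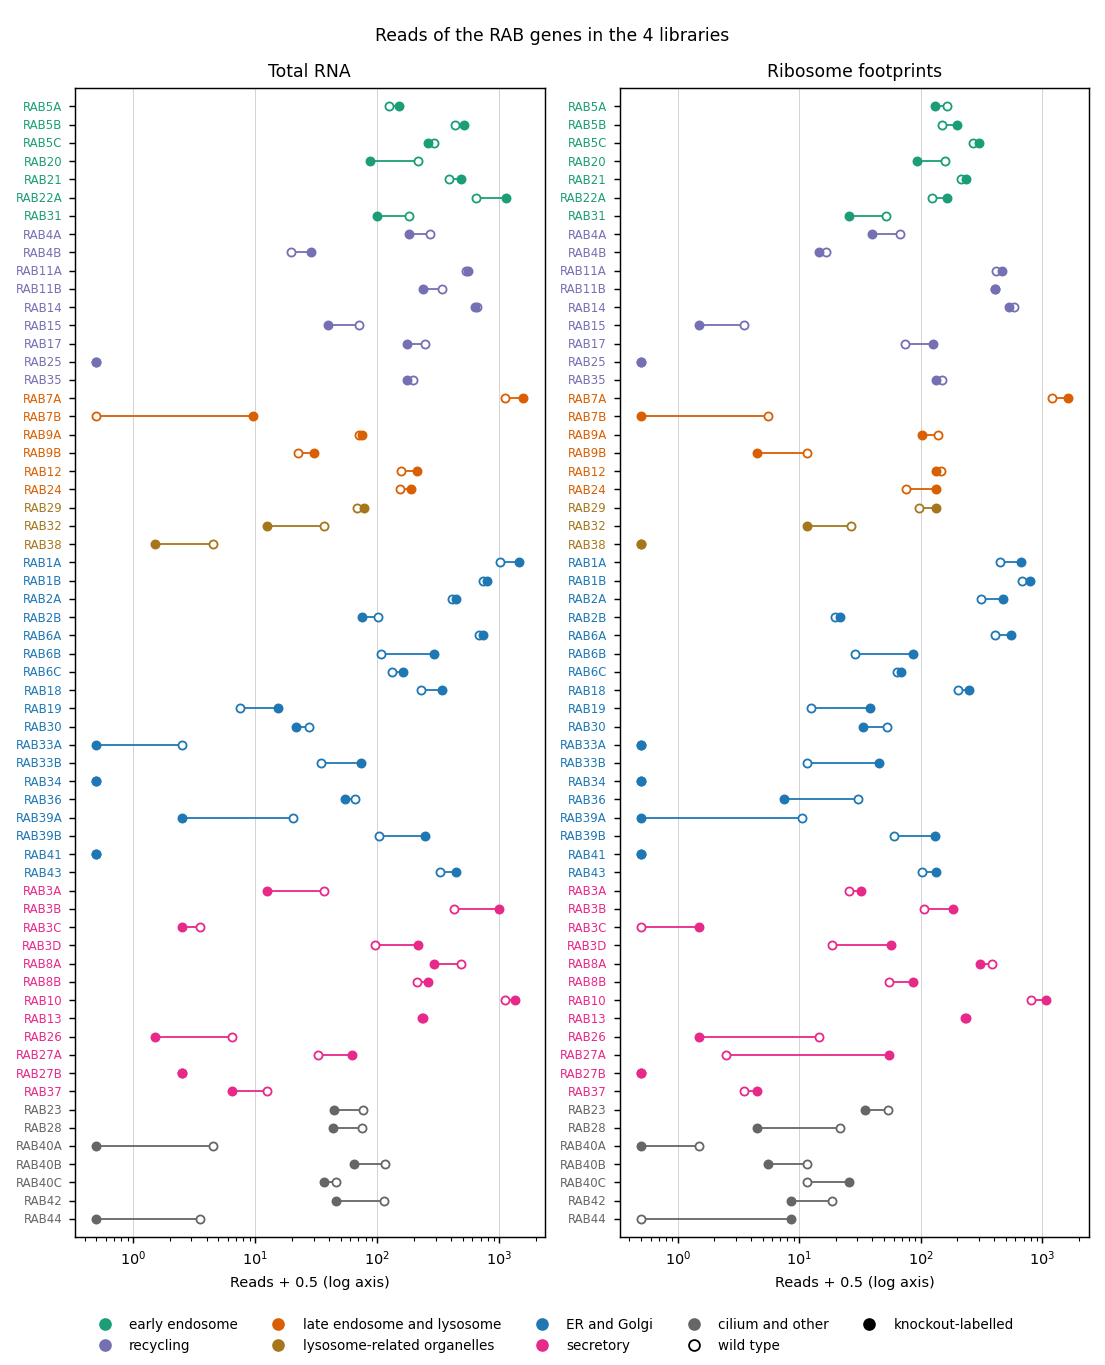
Reads of each of the 62 RAB genes in total RNA (left) and ribosome footprints (right), on a log axis of reads plus 0.5, with open circles for the wild-type and filled circles for the knockout-labelled library and colours for the compartment. RAB7A had the most footprints in both genotypes (1189 and 1626), and RAB25, RAB34 and RAB41 had 0 reads in every library.

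Changes are log2 ratios, knockout-labelled divided by wild type, after TMM scaling, with a prior count of 0.5 and a 95% counting interval. A gene counted as measured when its 2 libraries of a kind held 50 reads or more together, and it was called higher or lower at 1.5-fold or more with an interval that excluded no change. With 1 library per group these differences are without replication, and p-values cannot be had. In RNA 44 members were measured, of which 11 (25.0%) were higher and 7 (15.9%) lower. Among all 10875 genes measured, 16.2% were higher and 17.8% lower. In RPF 39 members were measured, of which 11 (28.2%) were higher and 3 (7.69%) lower, against 19.0% and 20.1% of all 9794 genes. The median member change was 0.27 in RNA and 0.35 in RPF, beside -0.01 and 0.00 over all genes. The share of members with a ratio above 1 was 63.6% in RNA and 71.8% in RPF, beside 49.3% and 49.7%. At a stricter line of 2-fold, 6 members were higher and 2 lower in RNA, beside 6.39% and 8.35% of all genes, and 6 were higher and 1 lower in RPF, beside 9.0% and 9.87%. These counts hold only the members that passed the minimum. RAB27A, RAB33B and RAB19 passed it in RPF largely through the library in which they were high. Of the other members, 12 had reads but were measured in neither kind and 3 had none. With no minimum on reads, over members with at least 1 read, the medians were 0.16 in RNA and 0.15 in RPF.

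**Figure D2:**
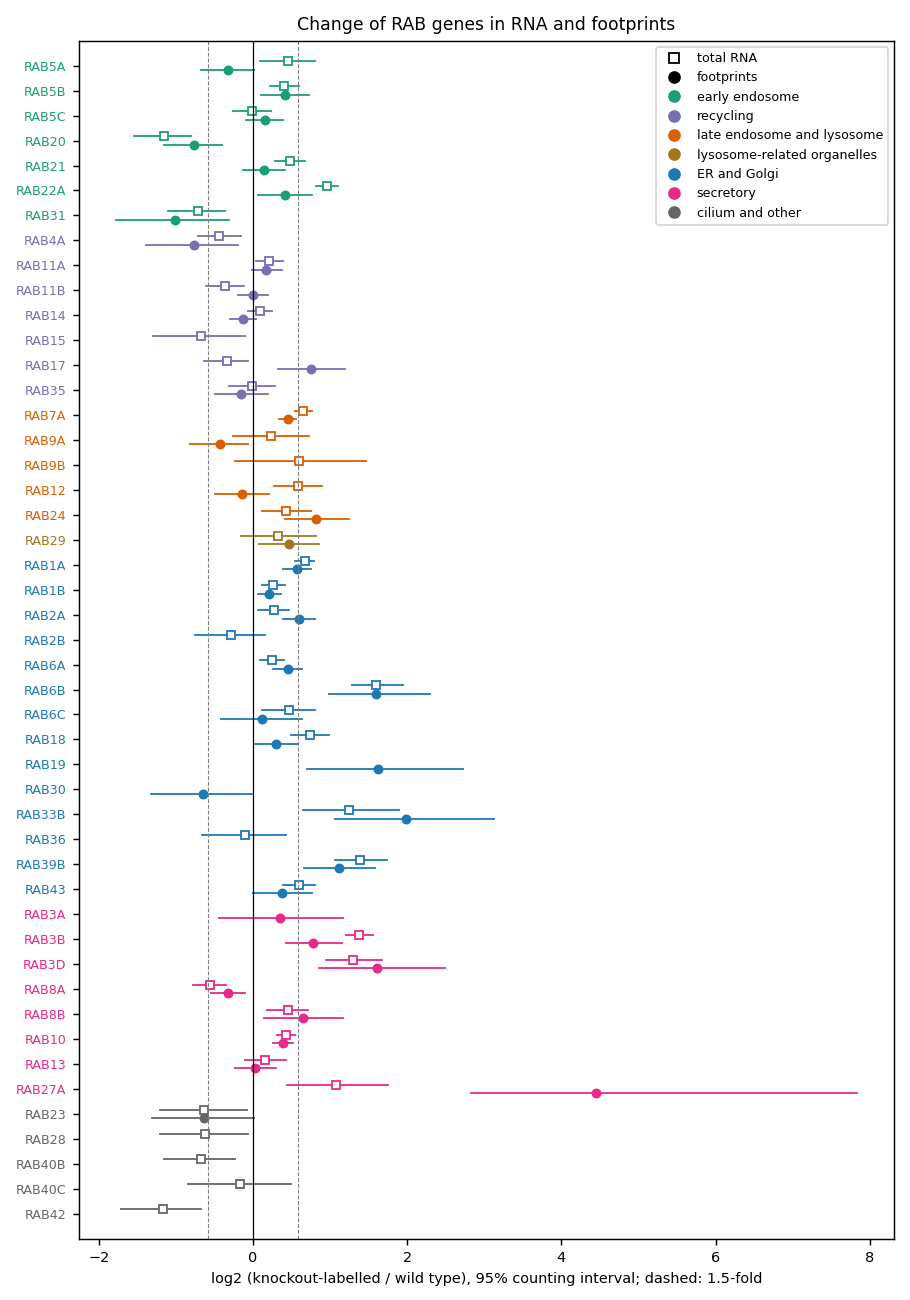
Log2 change of RAB genes between the knockout-labelled and the wild-type library in total RNA (open squares) and in footprints (filled circles), with 95% counting intervals, for members measured in that kind of library. RAB27A footprints lie furthest to the right at 4.45, and RAB20 and RAB31 lie to the left of the lower 1.5-fold line in both kinds.

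ER and Golgi members were the most numerous, and none of those measured was lower in either kind. Of 12 measured in RNA 6 (50.0%) were higher, beside 16.2% of all genes, with a median of 0.53. Of 12 measured in RPF 5 (41.7%) were higher, beside 19.0%, with a median of 0.51. Of these 5, RAB33B (11 and 45 footprints) and RAB19 (12 and 38) passed the minimum largely through the knockout-labelled library. Fewer reads in the knockout-labelled library were seen for RAB36 footprints (30 and 7) and RAB39A (20 and 2 RNA reads, 10 and 0 footprints). These fell under the minimum, so the absence of lower genes depends on it. RAB6B (chromosome 3, 133824239 to 133895816, minus strand, GRCh38), the RAB6 form known from neurons, had 106 reads in wild-type and 290 in knockout-labelled RNA. Its footprints went from 28 to 86, so that both changes were 3.03-fold, with log2 intervals of 1.28 to 1.94 in RNA and 0.99 to 2.29 in RPF. RAB39B (chromosome X, 155258241 to 155264589, minus strand), a Golgi-associated RAB mutated in X-linked intellectual disability, had 103 and 244 RNA reads and 60 and 130 footprints. It was 2.62-fold higher in RNA (log2 1.06 to 1.74) and 2.16-fold higher in RPF (0.66 to 1.58). RAB33B, which binds the autophagy protein ATG16L1, had 34 and 73 RNA reads and 11 and 45 footprints, 2.37-fold and 3.95-fold higher. All 3 were thus higher in RNA and footprints alike, from low to moderate wild-type levels.

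The abundant members of the ER to Golgi route moved less. RAB1A, which acts with its near-identical partner RAB1B in transport out of the ER, had 1017 and 1456 RNA reads and 445 and 661 footprints, with changes of 0.67 (0.55 to 0.79) and 0.57 (0.39 to 0.75). The RNA change passed the 1.5-fold line and the footprint change fell just short of it. RAB1B had 726 and 785 RNA reads and 685 and 791 footprints, with changes of 0.26 and 0.21. RAB2A, which works on Golgi membranes and in fusion with lysosomes, had 407 and 441 RNA reads and 312 and 473 footprints, and only the footprints were called, 1.51-fold higher. RAB6A, the main RAB of traffic within and from the Golgi, had 680 and 727 RNA reads and 406 and 555 footprints, with changes of 0.25 and 0.45. RAB18, found on ER and lipid droplets, was 1.66-fold higher in RNA (226 and 339 reads) and changed by 0.30 in footprints (200 and 247). RAB43, a Golgi RAB, had 326 and 444 RNA reads, 1.51-fold higher, and 101 and 132 footprints, a change of 0.38.

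Several Golgi members were scarce. RAB19 was measured in footprints only, where it went from 12 to 38, 3.08-fold higher. RAB30 had 52 and 33 footprints, a change of -0.65 (-1.33 to 0.00) that was not called. RAB2B had 101 and 74 RNA reads and 19 and 21 footprints. RAB36 was measured in RNA only (65 and 54 reads), and its footprints, 30 and 7, fell under the minimum. RAB39A, the paralog of RAB39B, had 20 and 2 RNA reads and 10 and 0 footprints and was measured in neither. RAB33A had 2 and 0 RNA reads and no footprint. RAB6C, whose reads overlap in sequence with those of RAB6A, had 131 and 162 RNA reads and 63 and 68 footprints and was not called.

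Early endosome members were all measured and moved in different directions. RAB20, which acts on early endosomes and phagosomes, was lower in both kinds, with 214 and 86 RNA reads (2.23-fold, log2 -1.54 to -0.80) and 159 and 93 footprints (1.71-fold, -1.16 to -0.40). RAB31, a RAB of early endosomes and the trans-Golgi network, was lower as well, with 182 and 99 RNA reads (1.65-fold) and 51 and 25 footprints (2.02-fold). RAB22A, its closest relative, went the other way in RNA, with 646 and 1132 reads, 1.95-fold higher. Its footprints, 124 and 165, changed by 0.41 (0.07 to 0.76) and were not called. The RAB5 forms, which define the early endosome and recruit EEA1 and the endosomal PI3-kinase, were not called in RNA or RPF. RAB5A had 123 and 151 RNA reads and 165 and 131 footprints, RAB5B 428 and 510 reads and 148 and 197 footprints, and RAB5C 290 and 259 reads and 269 and 299 footprints. RAB21, which handles integrin uptake, had changes of 0.48 in RNA (388 and 488 reads) and 0.14 in RPF (212 and 234).

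Recycling members mostly kept their RNA level within 1.5-fold. Of 7 measured in RNA 0 were higher and 1 (14.3%) was lower, beside 16.2% and 17.8% of all genes, with a median of -0.34. In RPF 1 of 6 (16.7%) was higher and 1 lower, beside 19.0% and 20.1%, with a median of -0.06. RAB17, a RAB of polarised epithelial cells that acts in apical recycling and transcytosis, had 247 and 175 RNA reads, a change of -0.34 (-0.63 to -0.06), but 74 and 125 footprints, 1.68-fold higher (0.33 to 1.19). RNA and footprints of RAB17 thus pointed in opposite directions. RAB4A, of fast recycling from early endosomes, had 271 and 180 RNA reads, a change of -0.44, and 67 and 39 footprints, 1.71-fold lower. RAB15, reported on early and recycling endosomes, had 70 and 39 RNA reads, 1.61-fold lower, but only 3 and 1 footprints. RAB11A and RAB11B, of the recycling endosome, were abundant and not called. RAB11A had 528 and 551 RNA reads and 413 and 466 footprints, and RAB11B 338 and 237 reads and 410 and 411 footprints. RAB14 had 655 and 627 RNA reads and 585 and 535 footprints, and RAB35 changed by -0.01 and -0.15. RAB4B had 19 and 28 RNA reads and 16 and 14 footprints and was not measured. RAB25, the epithelial form of the RAB11 group, had 0 reads in every library, which allows up to 0.540 to 0.794 CPM.

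RAB7A, which directs late endosomes to fusion with lysosomes, had more footprints than any other member. It had 1111 and 1568 RNA reads, 1.57-fold higher (0.54 to 0.76), and 1189 and 1626 footprints, a change of 0.45 (0.34 to 0.56) that lies below the 1.5-fold line. RAB24, linked to autophagy, was 1.77-fold higher in footprints (75 and 133) and changed by 0.43 in RNA (154 and 187). RAB9A, of transport from late endosomes to the trans-Golgi network, had 70 and 74 RNA reads and 138 and 102 footprints, and RAB12, of recycling endosome to lysosome traffic, had 156 and 210 reads and 145 and 132 footprints. In both the RNA ratio was above 1 and the footprint ratio below 1, and neither was called in RNA or RPF. RAB9B had 22 and 30 RNA reads, a change of 0.59 (-0.24 to 1.46), and 11 and 4 footprints, and RAB7B had at most 9 reads in a library. Of the members on lysosome-related organelles only RAB29, a partner of the kinase LRRK2, was measured, with changes of 0.33 and 0.46. RAB32 had 36 and 12 RNA reads and 26 and 11 footprints, under the minimum in both kinds, and RAB38 had at most 4 reads.

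Secretory members included the widest change of the group. RAB27A (chromosome 15, 55205349 to 55270286, minus strand), which docks lysosome-related and secretory vesicles and is lost in Griscelli syndrome, had 32 and 61 RNA reads, 2.1-fold higher (0.44 to 1.75). Its footprints numbered 2 and 54, a ratio of 21.8 with a log2 interval of 2.83 to 7.84 that is wide because the wild-type value rests on 2 reads. RAB27B had at most 2 reads in a library. RAB3B (chromosome 1, 51907956 to 51990764, minus strand), one of the RABs of regulated exocytosis, had 420 and 984 RNA reads, 2.60-fold higher (1.21 to 1.55), and 106 and 183 footprints, 1.72-fold higher (0.43 to 1.15). RAB3D (chromosome 19, 11322046 to 11339668, minus strand), found on secretory granules of exocrine cells, had 96 and 214 RNA reads, 2.47-fold higher, and 18 and 56 footprints, 3.05-fold higher. RAB3A, the synaptic vesicle form, had 36 and 12 RNA reads, under the minimum, and 25 and 32 footprints. RAB26, also of secretory granules, had 6 and 1 RNA reads and 14 and 1 footprints. RAB37 and RAB3C had at most 12 and 3 reads in a library.

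RAB8A, RAB8B, RAB10 and RAB13 had ratios nearer to 1 than RAB3B, RAB3D and RAB27A in both kinds. RAB8A, of traffic from the trans-Golgi network to the surface and the cilium, had 481 and 293 RNA reads, a change of -0.56 (-0.78 to -0.35) just short of the call, and 385 and 309 footprints, a change of -0.32. RAB8B had 212 and 260 RNA reads and 54 and 85 footprints, the latter 1.57-fold higher (0.14 to 1.17). RAB10, of basolateral and GLUT4 vesicle traffic, had 1099 and 1333 RNA reads and 813 and 1067 footprints, with changes of 0.43 and 0.39. RAB13, of tight junction traffic, had nearly equal counts throughout, with 233 and 235 RNA reads and 232 and 237 footprints. Of 7 secretory members measured in RNA 3 (42.9%) were higher and 0 lower, beside 16.2% and 17.8% of all genes. Of 8 in RPF 4 (50.0%) were higher and 0 lower, beside 19.0% and 20.1%. Of these 4, RAB27A (2 and 54 footprints) passed the minimum largely through the knockout-labelled library. RAB26 footprints (14 and 1) and RAB3A RNA reads (36 and 12) were fewer in that genotype but under the minimum, so the counts of 0 lower depend on it.

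Of the members of cilia and other sites 5 were measured in RNA, 4 of them lower and 0 higher, with 17.8% lower and 16.2% higher over all genes, and the median was -0.63. RAB42 had 113 and 45 RNA reads, 2.25-fold lower, and RAB40B, whose SOCS box joins it to a cullin ubiquitin ligase, had 114 and 64, 1.60-fold lower. RAB23, an inhibitor of Hedgehog signalling, had 76 and 44 RNA reads, 1.55-fold lower, and 53 and 34 footprints, a change of -0.63 (-1.31 to 0.01). RAB28, of photoreceptor cilia, had 74 and 43 RNA reads, 1.54-fold lower, and 21 and 4 footprints, under the minimum. RAB40C had 45 and 36 RNA reads and 11 and 25 footprints. Footprints of RAB42 (18 and 8) and RAB40B (11 and 5) were too few to be measured. RAB23 was the 1 gene of these measured in RPF. RAB44 had 3 and 0 RNA reads and 0 and 8 footprints, and RAB40A at most 4 reads in a library.

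**Figure D3:**
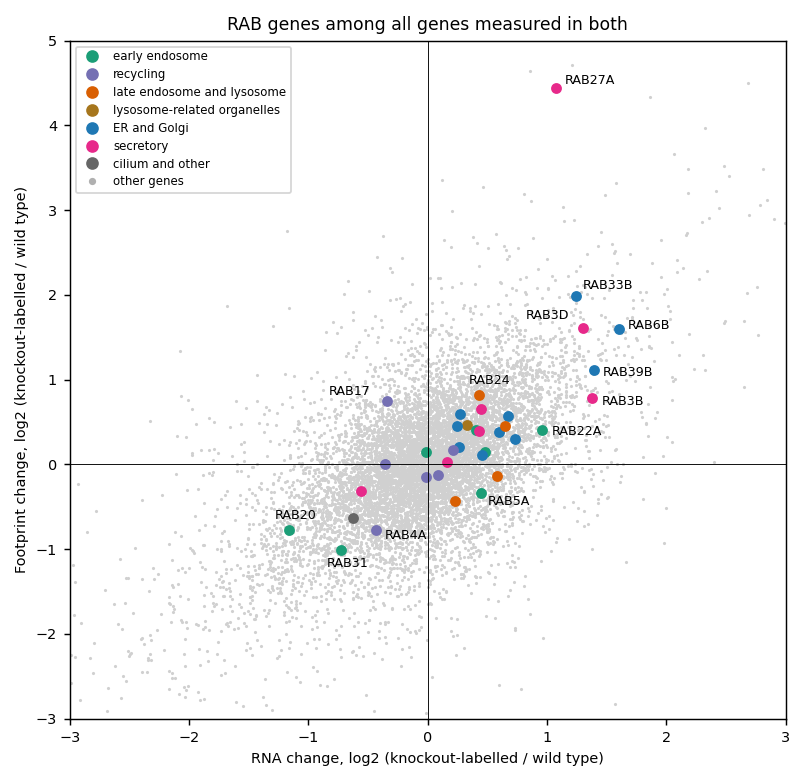
RNA change (x axis) against footprint change (y axis), both log2 of knockout-labelled over wild type, for the 36 RAB genes measured in both kinds (coloured by compartment) and 9562 other genes (grey), with 72 of all these genes outside the drawn range. RAB6B, RAB3B, RAB3D, RAB33B, RAB39B and RAB27A were higher in both kinds, RAB20 and RAB31 lower in both, and RAB17 lies left of 0 in RNA and above 0 in footprints.

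Calls of opposite sign in RNA and RPF were found for 0 of the 36 members measured in both kinds and for 116 of all 9598 genes. In 6 members (16.7%) RNA and footprints were both higher, in 2 (5.56%) both lower and in 17 (47.2%) neither was called, beside 7.89%, 9.53% and 47.1% of all genes. RAB18, RAB1A, RAB22A, RAB43 and RAB7A were higher in RNA only, and RAB17, RAB24, RAB2A and RAB8B in footprints only. The sign was the same for 29 of 36 members (80.6%) and for 6512 of 9598 genes (67.8%). Across members the changes had a Pearson's r of 0.684, beside 0.627 over all genes, as a description of genes that share the same 4 libraries.

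The mix of paralogs within a subfamily needs no scaling between libraries, because it is a share of reads within 1 library. Shares are of raw reads, so they are compared between libraries and not between paralogs. RAB8B made up 30.6% (27.2 to 34.2) of RAB8 RNA reads in wild type and 47.0% (42.8 to 51.3) in the knockout-labelled library. In footprints its share was 12.3% (9.38 to 15.7) and 21.6% (17.6 to 26.0), so the intervals were separate in both kinds. RAB31 fell from 22.0% to 8.04% of the RNA reads it shares with RAB22A and from 29.1% (22.5 to 36.5) to 13.2% (8.70 to 18.8) of their footprints. RAB6B rose from 11.6% to 24.6% of RAB6 RNA reads and from 5.63% (3.78 to 8.04) to 12.1% (9.82 to 14.8) of footprints. RAB1A rose from 58.3% to 65.0% of RAB1 RNA reads and from 39.4% (36.5 to 42.3) to 45.5% (42.9 to 48.1) of footprints. RAB39A went from 16.3% (10.2 to 24) to 0.813% (0.0986 to 2.91) of RAB39 RNA reads and from 14.3% (7.07 to 24.7) to 0% (0 to 2.80) of footprints. In each of these subfamilies the shift had the same direction in RNA and footprints, with separate intervals in each kind. They are grouped here by that pattern, which is therefore no separate result, and not every subfamily is given. RAB2B, for example, made up 19.9% (16.5 to 23.6) and 14.4% (11.5 to 17.7) of RAB2 RNA reads, with overlapping intervals.

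Shares of other paralogs are given next. RAB11B made up 39.0% (35.8 to 42.4) and 30.1% (26.9 to 33.4) of RAB11 RNA reads but 49.8% and 46.9% of footprints, where the intervals overlapped. RAB5A made up 14.6% and 16.4% of RAB5 RNA reads, with overlapping intervals, and 28.4% (24.7 to 32.2) and 20.9% (17.8 to 24.3) of RAB5 footprints. RAB3A went from 6.49% (4.58 to 8.87) to 0.99% (0.513 to 1.72) of RAB3 RNA reads, and RAB3B from 75.7% (71.9 to 79.2) to 81.2% (78.9 to 83.4), where the intervals overlapped. In footprints RAB3A made up 16.8% (11.2 to 23.8) and 11.8% (8.19 to 16.2), with overlapping intervals. RAB3B made up 71.1% (63.2 to 78.3) and 67.3% (61.4 to 72.8) of RAB3 footprints, again with overlap and in the other direction than in RNA.

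**Figure D4:**
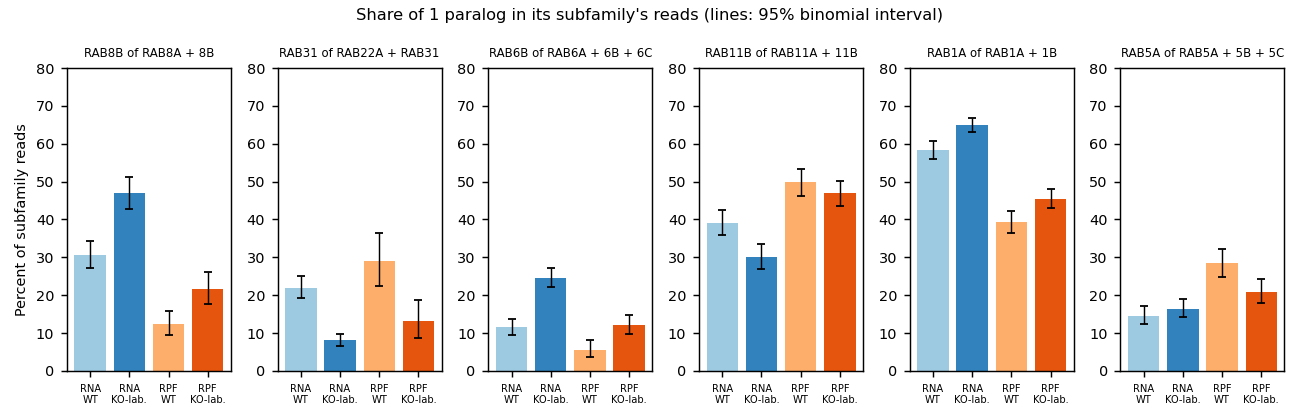
Share of 1 paralog in the summed reads of its subfamily, in percent, in wild-type (WT) and knockout-labelled (KO-lab.) total RNA and footprints, with 95% exact binomial intervals. RAB8B, RAB6B and RAB1A take a larger share in both knockout-labelled libraries and RAB31 a smaller one, while RAB11B differs in RNA and RAB5A in footprints.

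Translational efficiency (TE) is the level of footprints over that of RNA, and its change is the footprint change minus the RNA change. Of 36 members measured in both kinds, 2 (5.56%) had a higher and 4 (11.1%) a lower TE, beside 15.7% and 13.9% of all 9598 genes, and the median change was -0.05 beside 0.03. At 2-fold the counts were 2 and 0, beside 6.46% and 6.28%. RAB27A was higher by 3.37 (1.45 to 5.30) and RAB17 by 1.1 (0.60 to 1.60). RAB33B had a TE change of 0.74 (-0.36 to 1.84), past 1.5-fold but with an interval that includes no change, and was not called. RAB5A was lower by 1.72-fold (log2 -1.25 to -0.30), RAB12 by 1.64-fold (-1.17 to -0.26), RAB9A by 1.59-fold (-1.26 to -0.07) and RAB3B by 1.51-fold (-0.98 to -0.21). The members with lower TE therefore include 1 of 7 early endosome and 2 of 4 late endosome genes measured, and 0 of 10 ER and Golgi genes were called in either direction. RAB3B rose in RNA and in footprints, but less in footprints, and its TE change of -0.59 lies at the edge of the call.

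**Figure D5:**
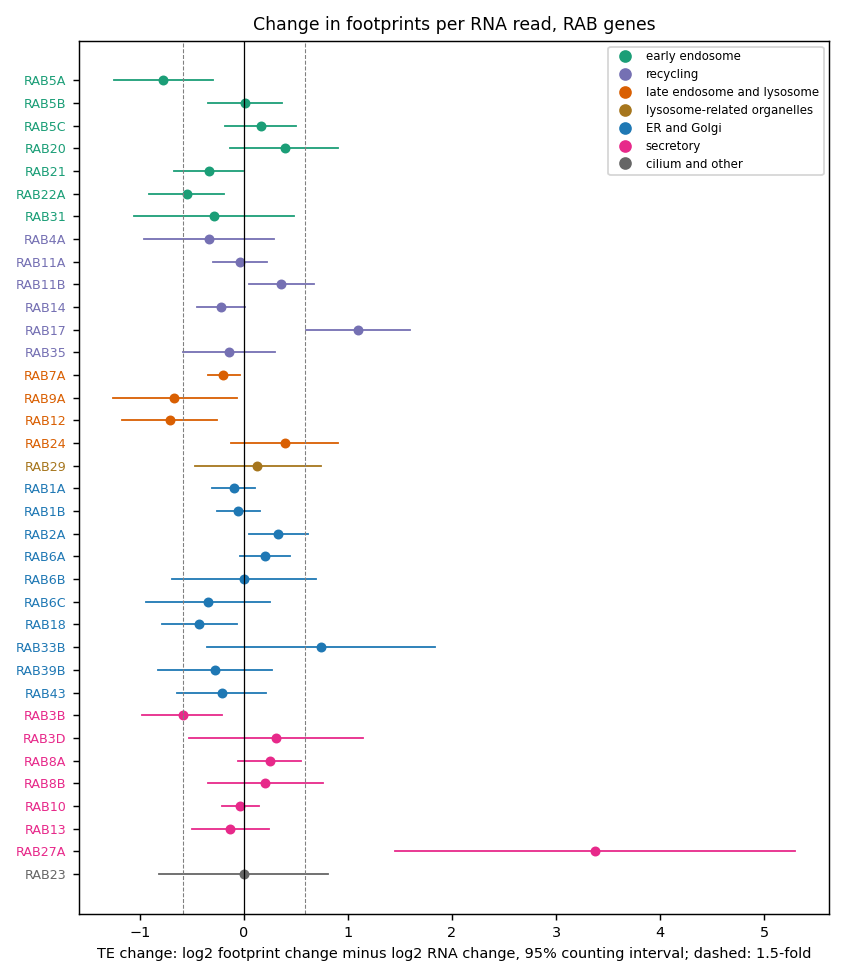
Change in translational efficiency (footprint change minus RNA change, log2) of the 36 RAB genes measured in both kinds, with 95% counting intervals. RAB27A at 3.37, RAB17 at 1.1 and RAB33B at 0.74 lie above the upper 1.5-fold line, the last with an interval that includes 0, and RAB5A, RAB12, RAB9A and RAB3B lie below the lower one.

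Footprints per RNA read within a genotype also varied among members. The log2 ratio of scaled footprints to scaled RNA reads had a median of -0.08 over the 36 members in wild type, beside 0.11 over all genes, and -0.03 beside 0.14 in the knockout-labelled cells. RAB9A (1.52), RAB29 (1.05) and RAB5A (0.97) had the highest wild-type values, and RAB27A (-3.16), RAB22A (-1.83) and RAB3D (-1.84) the lowest. Which stretch of a transcript was counted is not stated, and RAB genes differ in how much of the transcript is coding. The coding part was 6.71% of the RAB22A transcript, 5.12% of RAB3B and 29.6% of RAB9A. Across the 36 members this share (log2) had a Pearson's r of 0.31 with the wild-type ratio and 0.66 with the knockout-labelled ratio. With the TE change r was 0.41. Among the 36, RAB27A had the largest coding share (62.7%), the lowest wild-type ratio, resting on 2 footprints, and the largest TE change (3.37). Values of r without RAB27A were not computed. The r values are descriptions over genes of the same 4 libraries, and the part of coding share in the ratios and in the TE calls was not tested. Per kilobase of coding length and on the CPM scale, the highest levels in wild type were those of RAB7A (507), RAB10 (358), RAB1B (301), RAB14 (240) and RAB1A (191). In the knockout-labelled library these 5 genes stood at 692, 470, 347, 219 and 284, and RAB6A, at 235, lay above RAB14.

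Genes of the RAB cycle were taken from lists written from textbook knowledge. They were not picked for how they moved, but earlier results of these data were known when the lists were written. Of 8 genes for escort, GDI and prenylation, 0 were higher and 1 (12.5%) lower in RNA, beside 16.2% and 17.8% of all genes, and 3 (37.5%) higher and 0 lower in RPF, beside 19.0% and 20.1%. GDI2, which extracts RABs from membranes, had 1241 and 602 RNA reads, 1.86-fold lower, but 1418 and 1167 footprints. RABIF, a factor that stabilises nucleotide-free RABs, had 91 and 74 RNA reads and 40 and 152 footprints, so that footprints were 3.76-fold and TE 4.16-fold higher. RABGGTA, the alpha subunit of the geranylgeranyl transferase, had 146 and 166 RNA reads and 196 and 149 footprints, and its TE was 1.66-fold lower.

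Of 48 GEF genes measured in RNA 0 were higher and 8 (16.7%) lower, beside 16.2% and 17.8% of all genes. Of 45 measured in RPF 6 (13.3%) were higher and 8 (17.8%) lower, beside 19.0% and 20.1%, so the lower shares were near those of all genes. MON1A, a subunit of the RAB7 exchange factor, had 89 and 81 RNA reads but 26 and 121 footprints, 4.58-fold higher. RIN2, a RAB5 exchange factor, had 179 and 146 RNA reads and 73 and 134 footprints, 1.83-fold higher. DENND3, an exchange factor for RAB12, had 103 and 33 RNA reads, 2.78-fold lower, and MADD, which acts on RAB3 and RAB27, had 342 and 195 footprints, 1.75-fold lower. TRAPPC9 of the TRAPP complex had 166 and 203 RNA reads and 192 and 94 footprints, 2.04-fold lower. Of 34 GAP genes 7 (20.6%) were higher and 8 (23.5%) lower in RNA, and of 32 in RPF 6 (18.8%) were higher and 9 (28.1%) lower, beside the same shares of all genes. TBC1D17 was 3.43-fold lower in RNA (70 and 18 reads) and USP6NL 2.16-fold lower (306 and 127), while TBC1D7, also a subunit of the TSC complex, was 2.76-fold higher (44 and 110).

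Effector genes had 10 of 52 higher (19.2%) and 7 lower (13.5%) in RNA, beside 16.2% and 17.8% of all genes. In RPF they had 11 of 47 higher (23.4%) and 6 lower (12.8%), beside 19.0% and 20.1%, and the medians were 0.14 and 0.16. SYTL2, a RAB27 effector in vesicle docking, had 143 and 25 RNA reads and 119 and 24 footprints, 5.07-fold and 4.88-fold lower. UNC13D and SYTL4, which also bind RAB27, were 2.33-fold (172 and 401) and 3.00-fold (18 and 55) higher in footprints. MYO5B, the motor that RAB11 recruits, was 2.61-fold higher in RNA (175 and 412 reads). APPL2, a RAB5 effector, had 71 and 20 footprints, 3.49-fold lower, and rabenosyn-5 (RBSN), which binds RAB4 and RAB5, had 53 and 79 RNA reads but 69 and 26 footprints, with a TE 4.33-fold lower.

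Grouped by the end of the reading frame, a grouping made after the values were seen, the members with 2 cysteine codons split by 1 codon gave 8 higher and 2 lower genes among the 13 measured in RNA (median 0.65). In RPF, 7 of 13 were higher and 1 was lower (median 0.78). Over all genes 16.2% were higher and 17.8% lower in RNA, and 19.0% and 20.1% in RPF. Those with adjacent codons at the end had 2 of 13 higher and 1 lower in RNA (median 0.27) and 1 of 10 higher and 1 lower in RPF (0.30). Those with adjacent codons followed by others had 0 of 9 higher and 1 lower in RNA (0.21) and 2 of 10 higher and 1 lower in RPF (0.15). Those with a single cysteine codon had 1 of 8 higher and 3 lower in RNA (-0.36) and 1 of 5 higher and 0 lower in RPF (0.03). RAB3B, RAB3D, RAB27A, RAB33B, RAB39B and RAB6B are all of the split kind, and several of a kind are paralogs of each other, so members of a kind are not independent.

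Reads of close copies can be credited to the wrong gene. For 37 members no coding stretch of 28 nt occurred in a transcript of another gene in GENCODE 29, and for 8 more than 50% of such stretches did. RAB6C shared 91.4% of its stretches with other genes, most with RAB6D, and 35.7% of those of RAB6A occurred in RAB6C, so the split between them is uncertain. RAB24 and RAB13 shared 100%, with transcripts filed under MXD3 and AL358472.6 that overlap them on the same strand, and RAB43 shared 86.0% with RAB43P1. RAB1B shared 40.8% with RAB1C and RAB5C 76.7% with other genes. RAB42, called lower in RNA, shared 62.2% with RAB42P1, and RAB40B shared 17.1% with other genes. RAB27A, RAB20, RAB22A, RAB33B, RAB39B, RAB6B and RAB17 shared 0%, RAB3B 0.159%, RAB3D 2.22% and RAB31 3.58%. These values do not cover reads shorter than 28 nt or outside the coding part, and footprints were size-selected from 18 nt. The longest coding run shared by RAB6A and RAB6B was 20 nt, by RAB22A and RAB31 20 nt, and by RAB3A and RAB3B 26 nt. Exons of 9 members overlap another gene on the same strand, RAB3D and RAB4A among them. Exons of 20 members overlap a gene on the other strand, RAB6B, RAB33B, RAB17 and RAB3D among them, and whether counting used the strand is not stated.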

How the data were processed

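The authors deposited raw counts of reads, 1 value a gene, each tied to 1 Ensembl transcript, per the file headers. Tools named without a role in the submitters' processing notes are HISAT2 2.1.0, Bowtie 1.1.2 and cutadapt 1.10, and the build is GRCh38. Fragments were size-selected at 18 to 50 nt for RNA and at 18 to 34 nt for footprints, with random molecular identifiers in the linkers, per the labels' protocols. The annotation, counted region, use of the identifiers and handling of multi-mapping reads are unknown, as not given in the sources used here.

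Members, lists and compartments were chosen with earlier results of these data known. Compartments follow textbook location, and several members act at more than 1. Libraries of a kind were scaled over all genes by TMM (edgeR 4.0.16, R 4.3.3). Ratios used a prior count of 0.5, a minimum of 50 reads summed over the 2 libraries compared, and exact conditional 95% intervals. TE intervals came from the sum of reciprocal counts. Calls needed 1.5-fold. Shares have Clopper-Pearson intervals. The procedure was tested on simulated Poisson counts. These have no PCR copies and no variation between cultures, so the test cannot show how the calls fare with either. Every member called in any comparison was named with its reads, and of the members not called the most abundant in footprints and the paralogs. At most 4 genes per regulator list and comparison were eligible, ranked by the interval bound nearest to no change, and not every eligible gene is reported. Coordinates and sequences are from GENCODE release 29 (GRCh38), in which all 62 transcripts were found with the same symbol. Python 3.11.15, NumPy 2.4.6, SciPy 1.17.1, pandas 2.3.3 and Matplotlib 3.10.9 were used. Some items are not reported here.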

Additional observations from a re-analysis of the deposited data

How the results depend on the processing

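No paired analysis was possible because each group has 1 library, which also leaves no library that could be left out. Scaling by library totals or by DESeq2 size factors shifted log2 RNA changes of every gene by 0.02 and -0.01. Of the 38 calls of members in RNA, RPF and TE, 0 reversed under the 7 alternatives. RAB43 in RNA (0.58) and RAB3B in TE (-0.58) fell under the 1.5-fold line with DESeq2 size factors, and RAB12 in RNA (0.60) passed it with library totals. At a call of 2-fold 17 of 38 calls were left. That gave 6 members higher and 2 lower in RNA, 6 and 1 in RPF and 2 and 0 in TE. A minimum of 200 reads gave 9 members higher and 2 lower in RNA, 3 and 1 in RPF and 0 and 3 in TE. The medians were then 0.43 in RNA and 0.21 in RPF. A minimum of 20 reads gave 11 higher and 10 lower in RNA, 12 and 6 in RPF with a median of 0.19, and 4 and 6 in TE. With no minimum there were 12 higher and 10 lower in RNA, 13 and 8 in RPF, and 5 and 8 in TE. The medians were then 0.16 in RNA and 0.15 in RPF. The median wild-type ratio of footprints to RNA was 0.16 at a minimum of 200 reads and -0.37 with none, and the knockout-labelled one 0.07 at 200 reads. Over the 4 regulator lists together, 17 genes were higher and 24 lower in RNA, 26 and 23 in RPF, and 20 and 14 in TE. Measured in RNA were 8 genes for escort, GDI and prenylation, 48 GEFs, 34 GAPs and 52 effectors. In RPF and in TE the measured genes numbered 8, 45, 32 and 47. In the same order TE was higher in 25.0%, 13.3%, 15.6% and 14.9% and lower in 12.5%, 2.22%, 21.9% and 10.6%. Over all genes 16.2% were higher and 17.8% lower in RNA, 19.0% and 20.1% in RPF, and 15.7% and 13.9% in TE. At 2-fold 4 regulator genes were higher and 9 lower in RNA. In RPF the 2-fold counts of regulator genes were 11 and 6, and in TE 9 and 5. Over all genes the 2-fold shares were 6.39% higher and 8.35% lower in RNA, 9% and 9.87% in RPF, and 6.46% and 6.28% in TE. The member counts at 2-fold are to be read beside the same shares. At a minimum of 200 reads 14 regulator genes were lower in RNA, and 14 were higher and 6 lower in RPF (median 0.21, from -0.01). In TE 8 were higher and 3 lower. Shares of all genes at the other minimums were not computed. The number of members and regulator genes measured also changes with the minimum and is not given, so counts at different minimums cannot be compared as shares. Leaving out paralogs with under 50 reads kept shares within their intervals in the subfamilies that still had 2 or more genes. It gave no value for RAB39 and the other subfamilies left with 1 gene or none, so the RAB39A share was not covered. Depth limits the scarce members most: RAB27A rests on 2 wild-type footprints, and 15 members could not be measured in either kind.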
